A study of Mus musculus with 6 samples.

Results

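The actin, troponin and tropomyosin genes described here encode the thin filament of heart muscle and its fetal, adult, skeletal and smooth muscle forms. They were chosen by name as 10 genes: the actins Actc1, Acta1 and Acta2, the troponin T genes Tnnt2 and Tnnt1, the troponin C gene Tnnc1, the troponin I genes Tnni1 and Tnni3, and the tropomyosins Tpm1 and Tpm2. Each had 1 row that the platform annotation pairs with that symbol alone, so all 10 were found, of 22180 genes with a row. The samples were cardiomyocytes cultured from hearts of C57BL/6 mice aged 1 day, enriched by a pre-plating step and held for 12 h in 2% oxygen, 5% CO2 and 93% nitrogen. In the FGF21 group, 3 samples received FGF21, a metabolic hormone of the fibroblast growth factor family, at 1 µg/ml, and in the control group 3 samples received none. Both groups were hypoxic, the sex of the pups and any pooling of hearts were not given in the sources used here, and total RNA of each sample went to 1 Mouse Gene ST array.

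The thin filament is a helix of actin along which tropomyosin dimers lie end to end, each carrying a troponin complex. Troponin C binds calcium, troponin I holds actin and myosin apart at rest, and troponin T ties the complex to tropomyosin. The heart exchanges several of these parts as it matures: slow skeletal troponin I (Tnni1) of the fetal heart gives way to cardiac troponin I (Tnni3) around and after birth, and the smooth muscle and skeletal actins (Acta2 and Acta1) of the developing heart give way to cardiac actin (Actc1). The skeletal and smooth muscle forms can return in stressed or cultured cardiomyocytes, and Acta2 is also made by smooth muscle cells and activated fibroblasts.

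Values are log2 signals of a probe set after the robust multi-array average (RMA). A signal is not an amount of RNA, so it orders neither genes nor cell types by abundance, and percentiles below say only how bright a row was on these arrays. Array medians were 5.76 to 5.79 with FGF21 and 5.81 to 5.83 without, and correlations between arrays were 0.993 to 0.997. The number of arrays limits the precision, and as the labels do not say what a biological replicate was, the spread behind the p-values is that among these samples and may be technical. Markers of the labelled cell type were bright: all 15 cardiomyocyte genes outside the thin filament, among them Atp2a2, Ryr2 and Ttn, were at or above the 73.5th percentile of signal over all genes. The rows of all 12 fibroblast markers were at or above the 68.2nd percentile. The share of each cell type in the cultures was not measured. The cultures were bulk samples, in which fewer cells of a type and less RNA per cell cannot be told apart.

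The set as a whole moved little with FGF21, and its largest difference, in the fetal troponin I gene Tnni1 at 1.17-fold lower, did not pass over all genes. The differences of the 10 genes ran from -0.22 to 0.15 on the log2 scale, with 4 higher and 6 lower and a median of -0.04. Over all genes the median was -0.00558. Among the 11090 brighter genes by mean signal, which include all 10, it was 0.0360, so the set lay further below genes of like brightness. The median size of a difference, regardless of sign, was 0.0457 for the 10 genes and 0.0718 over all genes. The 10 rows were bright, from the 60.4th to the 99.95th percentile of signal, so most genes in that comparison were dimmer. Whether brightness bears on the size of a difference was not tested. In limma's fit, adjusted over all genes by the Benjamini-Hochberg method, 0 of the 10 passed 0.05, and 0% of all 22180 genes did, with adjusted p-values of the 10 genes from 0.264 to 0.937. At an unadjusted p under 0.05 the fit gave 1 of the 10, Tnni1, against 11.7% of all genes, which is a share near the background. Of all genes, 5.11% were lower and 6.59% higher with FGF21 at that threshold. In a fit of the 11090 brighter genes alone, 1279 were higher and 421 lower, and Tnni1 is among the lower. The 95% intervals of the 10 folds reached from 0.776 at the lowest bound (Tnni1) to 1.27 at the highest (Tpm2), so a change of a member beyond that range lies outside its interval.

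**Figure D1:**
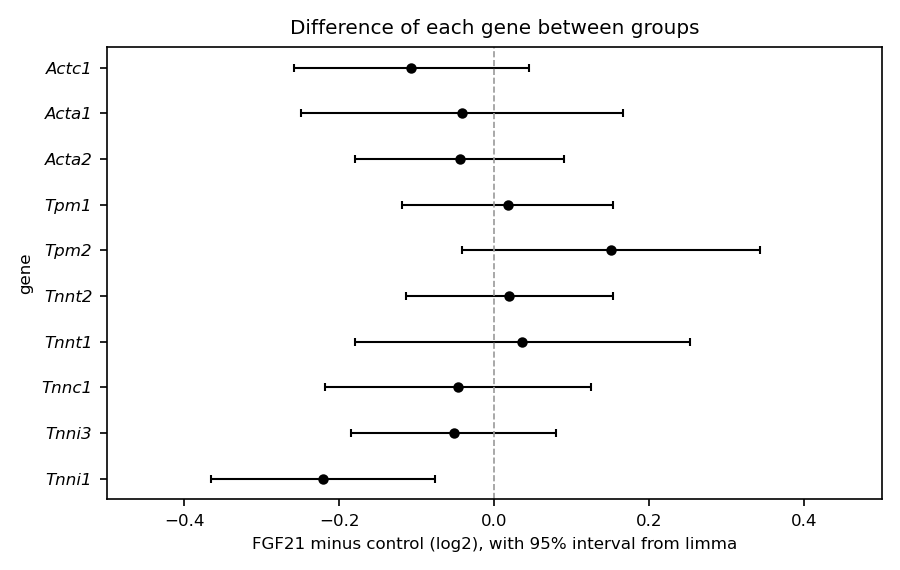
Difference between the FGF21 and control groups (x axis, log2) for each of the 10 genes (y axis), with the estimate as a point and limma's 95% interval as a bar (3 arrays per group). Tnni1, at -0.22, has the only interval among the 10 that does not cross 0.

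Cardiac actin, Actc1, the main sarcomeric actin of the adult heart, had array values of 12.98, 12.94 and 12.97 with FGF21 and 13.18, 13.02 and 13.01 without. All 3 FGF21 arrays lay below the 3 controls, by a gap of 0.0320, and control replicate 1 stood above the other two. The difference was -0.11 ± 0.07 (SE), with an adjusted p of 0.563 by limma, and it was -0.05 without control replicate 1. Its unadjusted p by limma was 0.146, and 0.0440 with a trend and robust prior, which changes the variance prior in both respects at once. After median centring of each array the difference was -0.07.

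Skeletal actin, Acta1, a gene of fetal and overloaded heart muscle, had values of 7.39, 7.12 and 7.28 with FGF21 and 7.23, 7.47 and 7.22 without. The groups overlapped throughout, with the highest and the next-highest array in different groups. Its difference was -0.04 ± 0.09 (SE), and its fold of 0.971 had an interval of 0.841 to 1.12. The sign turned to 0.03 without FGF21 replicate 2 and to 0.04 without control replicate 2.

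Smooth muscle actin, Acta2, had values of 12.02, 12.01 and 11.97 with FGF21 and 12.09, 12.04 and 12.01 without. The groups overlapped, since control replicate 3 lay between FGF21 arrays. The difference was -0.04 ± 0.06 (SE), with an interval of the fold from 0.883 to 1.06. It was -0.02 without control replicate 1, -0.00871 after median centring and -0.08 with quantile normalization applied again. The other smooth muscle markers averaged 8.04 to 8.12 over the FGF21 arrays and 8.07 to 8.16 over the controls, and fibroblast markers 10.1 to 10.2 and 10.2 to 10.3. The smooth muscle genes went both ways, with 4 higher and 6 lower. Rgs5 differed by -0.49 ± 0.15 (SE) and Myh11 by 0.16 ± 0.06, with adjusted p-values by limma of 0.281 and 0.366. Rgs5 had values of 7.92, 8.53 and 8.60 with FGF21 and 8.86, 8.86 and 8.81 without, so FGF21 replicate 1 stood below all other arrays. Pln is on both this list and the cardiomyocyte list. Cnn1, Tagln and Lmod1 are also on the list of SRF and MRTF targets below, and Lmod1 on that of thin filament proteins. Of the other actin, troponin and tropomyosin genes below, Actg2 is also a smooth muscle marker and Tpm4 an SRF target. Tnnt3, Tnni2 and Tnnc2 among them are also skeletal muscle markers. Counts of these lists are therefore not independent. The part of smooth muscle cells and fibroblasts in the Acta2 signal was not tested. The coding sequences of the actins are close to each other, and probe sequences were not used here, so how far each actin row also reads the other actins was not tested.

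Actin genes of muscle are classic targets of serum response factor (SRF), which binds the CArG box. The 250 bases before each RefSeq start (build GRCm38.p6, 5′ to 3′) were searched on both strands for the CArG box, for CATTCC, the MCAT element bound by TEAD factors, and for TATAAA, and the matches are in capitals. The CArG box was searched as CC, then only A or T, then GG, with no mismatch. The actin promoters are shown because the actins differ in whether they hold an exact match to this form:
Actc1, chr2:114052876-114053125, - strand: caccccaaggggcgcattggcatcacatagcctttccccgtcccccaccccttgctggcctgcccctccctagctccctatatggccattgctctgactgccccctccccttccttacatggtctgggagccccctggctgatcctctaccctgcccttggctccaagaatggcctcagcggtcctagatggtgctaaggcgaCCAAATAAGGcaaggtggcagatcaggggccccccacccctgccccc
Acta1, chr8:123894776-123895025, - strand: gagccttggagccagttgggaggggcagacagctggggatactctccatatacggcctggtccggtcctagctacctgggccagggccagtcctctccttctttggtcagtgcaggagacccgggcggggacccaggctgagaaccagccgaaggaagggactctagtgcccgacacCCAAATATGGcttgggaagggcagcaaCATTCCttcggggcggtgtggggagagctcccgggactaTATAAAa
Acta2, chr19:34255374-34255623, - strand: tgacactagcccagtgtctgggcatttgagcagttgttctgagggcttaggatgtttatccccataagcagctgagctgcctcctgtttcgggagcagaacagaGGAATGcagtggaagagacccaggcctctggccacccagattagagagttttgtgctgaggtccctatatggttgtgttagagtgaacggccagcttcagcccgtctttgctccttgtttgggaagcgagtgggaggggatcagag

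A CArG box lay at bases -47 to -38 of Actc1 (CCAAATAAGG) and at bases -73 to -64 of Acta1 (CCAAATATGG), and these were the only promoters of the set with a match in this window. Of the 12 promoter entries of the 10 genes, 2 held a CArG box, 5 CATTCC and 2 TATAAA, and none of the 9 matches overlapped another. Over all 32851 promoters of the table the shares were 1.47%, 12.6% and 12.4%. CATTCC or its reverse complement was found for Acta1, Acta2, Tnnc1, Tnnt2 and Tpm1. A match is a description of letters. Acta2 had no exact match to the searched form of the CArG box, which does not show that it lacks SRF sites. Its printed window holds ccctatatgg and ccttgtttgg, each with a C or G where the searched form takes A or T. The Actc1 window also holds ccctatatgg, ccttacatgg and ccaagaatgg, and the Acta1 window holds ccatatacgg and ccttctttgg. Near matches were not searched for systematically, so these are examples. Whether these near matches bind SRF was not tested, and sites may also lie elsewhere.

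**Figure D2:**
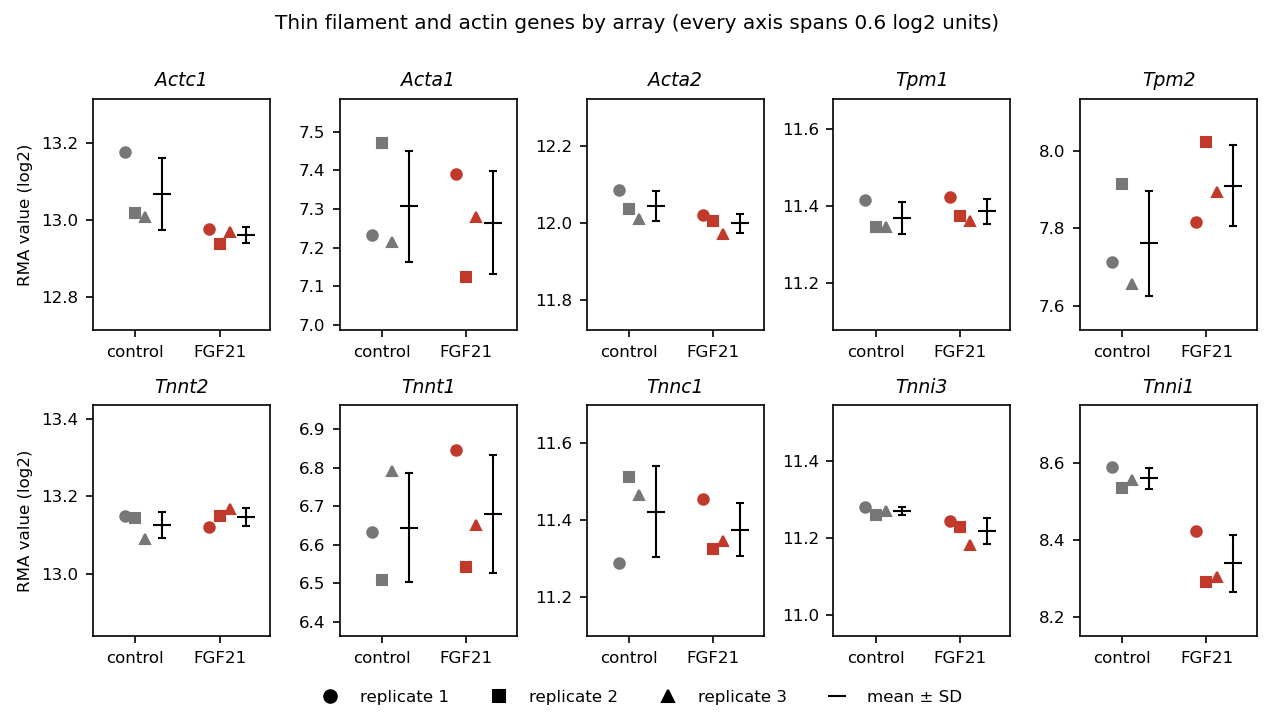
RMA values (y axis, log2) of the 10 genes in the control arrays (grey) and the FGF21 arrays (red), with the replicate number as the symbol and the mean ± SD (n = 3) beside the points; each panel spans the same height. The Tnni1 groups are apart, from 8.29 to 8.42 against 8.54 to 8.59, whereas in 7 of the panels the groups overlap.

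The troponin I genes carried the largest difference of the set. Tnni1, the slow skeletal form of the fetal heart, had values of 8.42, 8.29 and 8.30 with FGF21 and 8.59, 8.54 and 8.56 without. The controls lay close together and all 3 FGF21 arrays lay below them, by a gap of 0.111. The means were 8.34 ± 0.0732 (SD, n = 3) with FGF21 and 8.56 ± 0.0272 without. The difference was -0.22 ± 0.06 (SE), a fold of 0.858 (95% interval 0.776 to 0.949), with an unadjusted p of 0.00684 and an adjusted p of 0.264 by limma. In order of p, Tnni1 was gene 572 of 22180, and 93.4% of all genes had a smaller difference in size. Tnni1 therefore did not pass over all genes. Its difference stayed between -0.28 and -0.18 and its unadjusted p between 0.00305 and 0.0276 in the 14 other settings run, with 0.161 as the lowest adjusted p.

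Tnni3, the cardiac troponin I of the mature heart, had values of 11.24, 11.23 and 11.18 with FGF21 and 11.28, 11.26 and 11.27 without. Its groups did not overlap either, but by a gap of only 0.0157. The difference was -0.05 ± 0.06 (SE), with an adjusted p of 0.764 by limma and an interval of the fold from 0.880 to 1.06. It was -0.02 after median centring of each array, and there the Tnni3 groups overlapped.

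The troponin I promoters are shown because these genes are the fetal and adult forms of the same subunit:
Tnni1, chr1:135799171-135799420, + strand: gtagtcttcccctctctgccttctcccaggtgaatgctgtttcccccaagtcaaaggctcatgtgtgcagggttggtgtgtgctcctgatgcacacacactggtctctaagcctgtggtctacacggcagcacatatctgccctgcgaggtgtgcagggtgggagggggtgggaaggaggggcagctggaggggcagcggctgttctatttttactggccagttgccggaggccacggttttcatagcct
Tnni3, chr7:4522529-4522778, - strand: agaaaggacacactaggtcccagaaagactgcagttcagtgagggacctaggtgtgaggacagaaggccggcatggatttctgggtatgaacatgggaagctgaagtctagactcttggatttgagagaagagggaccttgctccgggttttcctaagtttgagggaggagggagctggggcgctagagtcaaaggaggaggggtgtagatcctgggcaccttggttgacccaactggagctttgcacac

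Neither window held a CArG box, CATTCC or TATAAA. RefSeq gives Tnni1 a further start, whose window is not printed because it runs over the transcript of the first, and it held none of these letters either.

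As a description of the balance between the adult and fetal troponin I rows, the log2 ratio of Tnni3 to Tnni1 was taken within each array and centred on the mean of the 6 arrays. It was 0.03, 0.14 and 0.08 with FGF21 and -0.10, -0.07 and -0.08 without. The groups did not overlap, and the FGF21 mean lay 0.17 above the control mean, a ratio 1.12-fold higher. Both genes were lower with FGF21, and the ratio reuses the Tnni1 values above, so it adds no independent support. How often other pairs of genes separate in this way was not counted. The difference between the genes was not tested, and their 95% intervals overlap, from -0.37 to -0.08 for Tnni1 and from -0.18 to 0.08 for Tnni3. Endothelial markers were lower in the same arrays: 11 of 12 had lower values with FGF21, and the list averaged 7.09 to 7.31 with FGF21 and 7.41 to 7.60 without. Cardiomyocyte markers outside the thin filament averaged 10.49 to 10.54 and 10.50 to 10.67, and epicardial markers 7.89 to 8.05 and 7.79 to 7.89. The part of cell composition in the Tnni1 difference was not tested.

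The other pairs of isoform genes showed no such separation. The ratio of Actc1 to Acta1 was -0.14, 0.08 and -0.04 with FGF21 and 0.21, -0.18 and 0.07 without, and the controls alone spanned the whole range of the FGF21 arrays. The ratio of Actc1 to Acta2 was -0.04, -0.06 and 0.00300 against 0.10, -0.01 and 0.00640. The ratio of Tnnt2 to Tnnt1 differed by -0.02 between the group means, with SDs of 0.171 and 0.172, and that of Tpm1 to Tpm2 by -0.13, with SDs of 0.128 and 0.153. In each of these 4 pairs the groups overlapped.

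**Figure D3:**
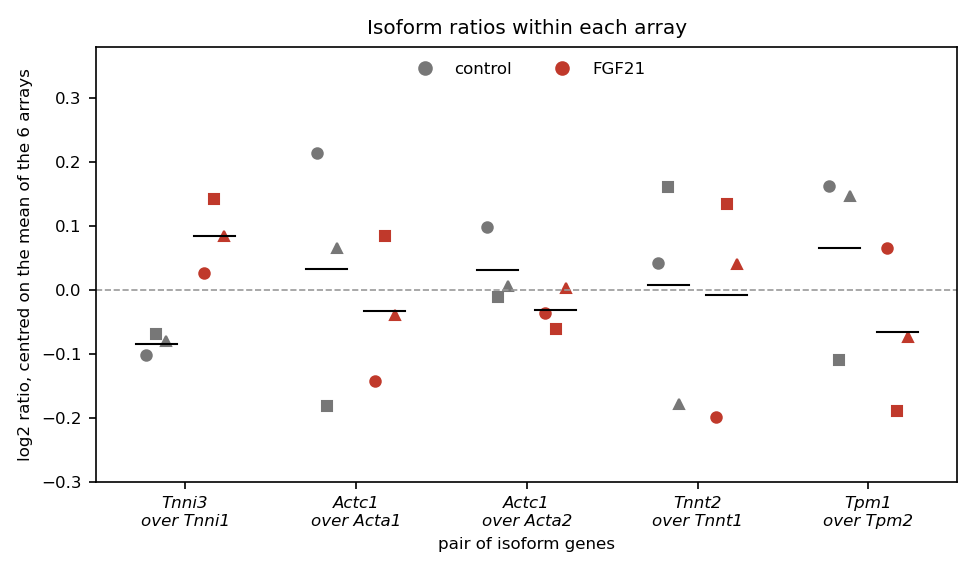
Log2 ratio of paired isoform genes within each array, centred on the mean of the 6 arrays (y axis), for 5 pairs (x axis), with control arrays in grey, FGF21 arrays in red, replicate numbers as symbols and group means as bars. The Tnni3 over Tnni1 ratio is 0.03 to 0.14 in the FGF21 arrays and -0.10 to -0.07 in the controls, and in the other 4 pairs the groups overlap.

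Troponin T, which anchors the complex to tropomyosin, gave a steady row and a variable one. The cardiac form Tnnt2 had values of 13.12, 13.15 and 13.17 with FGF21 and 13.15, 13.14 and 13.09 without, so all 6 arrays lay within 0.0787. Its difference was 0.02 ± 0.06 (SE), and -2.55e-05 without control replicate 3. The slow skeletal form Tnnt1 had values of 6.85, 6.54 and 6.65 with FGF21 and 6.63, 6.51 and 6.79 without. The highest and the lowest array differed by 0.338 and the groups overlapped, with a difference of 0.04 ± 0.10 (SE) that turned to -0.05 without FGF21 replicate 1 and to -0.03 without control replicate 2. Tnnt2 is known to be spliced into fetal and adult forms that differ in their N-terminal part, and 1 value per gene does not separate them.

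Tnnc1, the calcium-binding troponin C shared by heart and slow skeletal muscle, had values of 11.45, 11.33 and 11.34 with FGF21 and 11.29, 11.51 and 11.46 without. Both the lowest and the highest array were controls. The difference was -0.05 ± 0.08 (SE), and it was -0.11 when control replicate 1 was left out and -0.00158 when control replicate 2 was.

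The tropomyosins lie along actin and set the position from which myosin can bind. Tpm1, the alpha form that dominates in the rodent heart, had values of 11.42, 11.38 and 11.36 with FGF21 and 11.42, 11.35 and 11.35 without. Its groups overlapped, with a difference of 0.02 ± 0.06 (SE) and an interval of the fold from 0.921 to 1.11; the sign turned to -0.00470 with quantile normalization applied again and to -0.000811 without FGF21 replicate 1. Tpm2, the beta form of fetal heart, skeletal and smooth muscle, had values of 7.82, 8.02 and 7.89 with FGF21 and 7.71, 7.92 and 7.66 without. Control replicate 2 lay within the range of the FGF21 arrays and the other two controls below it. The difference was 0.15 ± 0.09 (SE), the highest of the set, with an adjusted p of 0.528 by limma. It moved both ways with single arrays: it was 0.23 without control replicate 2 (unadjusted p of 0.0248 and adjusted p of 0.344 by limma), 0.09 without FGF21 replicate 2 (unadjusted p of 0.340) and 0.10 without control replicate 3 (unadjusted p of 0.326). With quantile normalization applied again it was 0.10.

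Over the set, the groups did not overlap for 3 of 10 genes, Actc1, Tnni1 and Tnni3, all lower with FGF21, against 17.1% of all genes in either direction with 8.14% lower and 8.99% higher. After median centring of each array the count was 1, Tnni1, against 18.9% of all genes (4.05% lower), and with quantile normalization applied again it was 4, with Acta2 added, against 15.2% (7.24% lower). The array medians, taken over all 41345 rows, were lower with FGF21, and centring removes that offset. Over the 22180 genes centring moved the median difference from -0.00558 to 0.0305, so it shifted these genes upward with FGF21.

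The genes with the widest range over the 6 arrays were Tpm2 (0.367), Acta1 (0.348) and Tnnt1 (0.338). The likeness of another gene's profile was measured as the root mean square difference of values centred on each gene's mean, over 6 arrays. For Tpm2 the nearest genes were Xdh (0.0272), Nudt5 (0.0274) and Chchd7 (0.0275). For Acta1 they were Kcnn1 (0.0213), Shbg (0.0313) and Bcan (0.0324). For Tnnt1 they were Slc5a4a (0.0255), Sdcbp2 (0.0277) and the immunoglobulin segment Igkv4-72 (0.0320). The 6 arrays include both groups, and no test was made of these likenesses.

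Other actin, troponin and tropomyosin genes gave 5 higher and 3 lower of 8, with a median difference of 0.05. Tpm3, the slow skeletal and cytoskeletal tropomyosin, had values of 8.86, 8.90 and 8.99 with FGF21 and 8.67, 8.66 and 8.25 without. The groups did not overlap, and control replicate 3 was the lowest array. The difference was 0.39 ± 0.11 (SE), with an unadjusted p of 0.00510 and an adjusted p of 0.250 by limma, and it was 0.25 without control replicate 3. The cytoskeletal tropomyosin Tpm4 differed by 0.13 ± 0.06, the enteric smooth muscle actin Actg2 by 0.26 ± 0.11 and the cytoplasmic actin Actg1 by 0.05 ± 0.06, none past adjustment over all genes. Actg2 was at 0.12 without control replicate 3 and at 0.39 without control replicate 2, and Actg1 at 0.02 without FGF21 replicate 1. Tpm3 was the only one of these 8 at an unadjusted p under 0.05.

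Proteins that cap, measure or remodel the thin filament went both ways, with 13 of 23 higher, a median of 0.02 and 1 gene in each direction at an unadjusted p under 0.05. Tmsb4x, which encodes the actin monomer binder thymosin beta 4, differed by 0.16 ± 0.06 (SE), and Fhod3, a formin that builds sarcomeric actin, by -0.19 ± 0.08 (-0.12 without control replicate 1). Lmod2, which lengthens thin filaments from their pointed ends, differed by 0.10 ± 0.06, and Xirp2 by 0.16 ± 0.09 (0.25 without FGF21 replicate 1). Adjusted p-values of these 4 by limma ran from 0.361 to 0.556. With quantile normalization applied again the median of the list was -0.01.

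Among 14 transcription regulators of muscle actin and troponin genes, 8 were higher and 6 lower, with a median of 0.04 that turned to -0.02 with quantile normalization applied again. Srf, which encodes the CArG-binding factor, had values of 8.12, 8.34 and 8.07 with FGF21 and 7.92, 7.87 and 7.999 without. The groups did not overlap, with a difference of 0.24 ± 0.08 (SE), an unadjusted p of 0.0138 and an adjusted p of 0.316 by limma. Its coactivator gene Mrtfa differed by 0.14 ± 0.06, Myocd by 0.08 ± 0.07 (0.15 without control replicate 1, 0.04 without control replicate 3) and the cardiac homeobox gene Nkx2-5 by 0.07 ± 0.06.

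Of 18 SRF and MRTF target genes outside the set, 13 were higher with FGF21, with a median of 0.09 (0.04 with quantile normalization applied again), where the 10 thin filament and actin genes had -0.04. Over all genes 10591 of 22180 were higher. Only 1 of the 18 rows was below the median gene in signal, and with such dim genes left out the median over all genes was 0.0360. At an unadjusted p under 0.05, 3 of the 18 were higher and 1 lower. Ccn2, a matricellular gene, differed by 0.29 ± 0.07 (SE), the actin crosslinker gene Flna by 0.18 ± 0.06, Filip1l by 0.24 ± 0.10, and Fhl2, a LIM protein gene of the heart, by -0.23 ± 0.06. Their adjusted p-values by limma ran from 0.193 to 0.386, so none passed. The members with an exact CArG match in the window, Actc1 and Acta1, differed by -0.11 and -0.04. Acta2, with near matches in the window but no exact match to the searched form, differed by -0.04.

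Skeletal muscle markers, read beside Acta1, Tnnt1 and Tnni1, had 11 of 14 lower values, with a median of -0.06 and means of 6.03 to 6.17 over the FGF21 arrays and 6.147 to 6.152 over the controls. Over all genes 11589 of 22180 were lower. Of the 14 marker rows, 9 were below the median gene in signal, and after median centring 9 were lower. Myog, a myogenic regulator, differed by -0.24 ± 0.07 (SE), with an adjusted p of 0.278 by limma, and the other 13 had an unadjusted p of at least 0.0664. Of the cardiomyocyte markers, 5 were higher and 10 lower, with a median of -0.01 that turned to 0.03 after median centring; Cox6a2, a muscle subunit of cytochrome oxidase, differed by -0.18 ± 0.07, Ttn by -0.22 ± 0.12, Ryr2 by -0.17 ± 0.10 and Atp2a2 by -0.15 ± 0.10. These 4 stayed above 0.05 when adjusted over all genes. Without control replicate 1, Ttn differed by -0.07, Ryr2 by -0.04 and Atp2a2 by -0.03. The median difference was -0.28 for endothelial markers, where 7 of 12 had an unadjusted p under 0.05, all lower. It was 0.13 for epicardial markers, where 4 of 8 did, all higher. Over all genes, 5.11% were lower and 6.59% higher at that threshold. Neither list had a gene that passed adjustment over all genes. Their lowest adjusted p-values by limma were 0.191 (Erg) and 0.208 (Krt19).

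**Figure D4:**
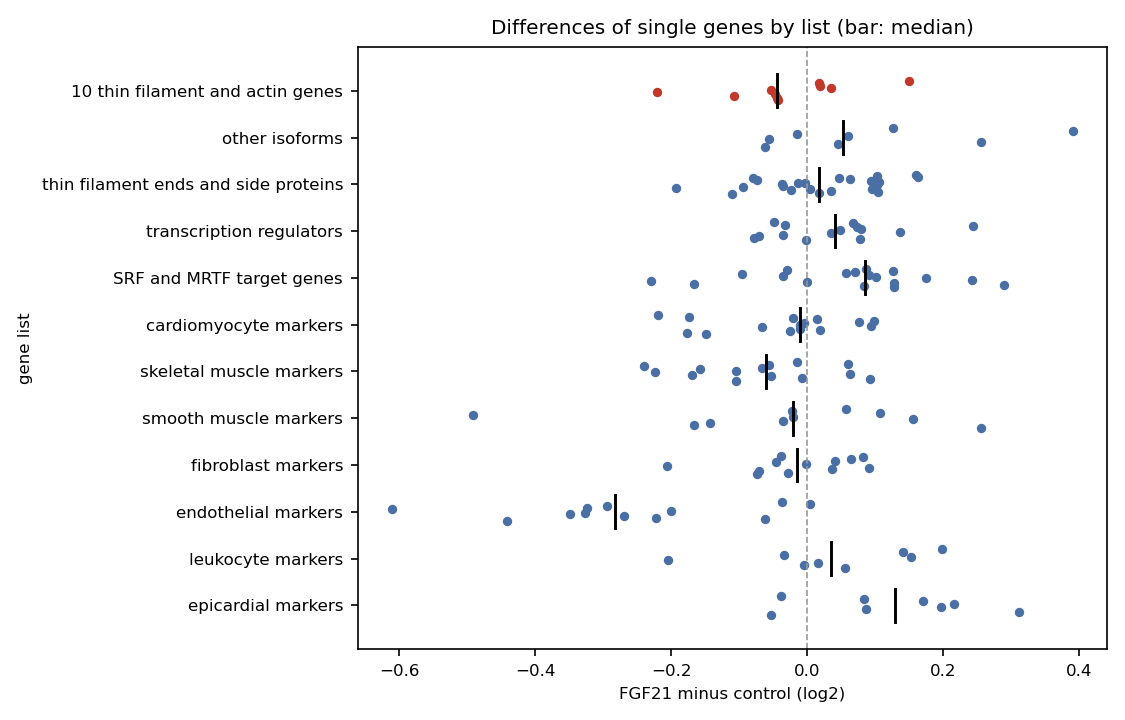
FGF21 minus control differences (x axis, log2) of single genes by list (y axis), the 10 thin filament and actin genes in red and the other lists in blue, with the median of each list as a bar. The red points lie between -0.22 and 0.15, and the list farthest from 0 is that of endothelial markers, at a median of -0.28.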

How the data were processed

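Deposited values were log2 signals of 41345 probe sets on 6 arrays, made by the authors with the affy package and RMA in R 3.2.2, per the submitters' processing notes. RMA equalises array distributions and compresses differences of dim genes. Chip definition and genome build: not given in the sources used here. Rows with 1 symbol in the platform annotation (23521) gave 22180 genes, using the row of highest mean. FGF21 was compared with control with limma 3.58.1 in R 4.3.3 (lmFit, eBayes, two-sided, no covariate), adjusted over all genes at 0.05. SE is the standard error of the fit. Promoters came from RefSeq (GRCm38.p6), which held all 10 genes; protein sequences were not used here. The 10 genes and all lists were chosen with earlier results of these data known. Named genes are the 10, the 4 of smallest p in each other list, and the 3 nearest profiles of the 3 genes with the widest range. Of these, a part is given in the text.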

Additional observations from a re-analysis of the deposited data

How the results depend on the processing

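Alternatives were the replicate block, each array left out, quantile normalization applied again, median centring, dim genes left out, the mean of a gene's rows, all rows, a trend and robust prior, and an ordinary equal-variance statistic. Over 14 alternatives and 10 genes (140 values), 0 passed the adjusted threshold and 7 changed sign. Acta1 ran from -0.105 to 0.0405, Tnnt1 from -0.0473 to 0.109, Tnnt2 from -2.55e-05 to 0.0316 and Tpm1 from -0.000811 to 0.0408 with arrays left out, and Tpm1 was -0.004696 with quantile normalization applied again. The 6 other genes kept their sign. The cause of these changes was not tested.

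Members at an unadjusted p under 0.05 numbered 1 to 2 with arrays left out and 2 with the trend and robust prior (Actc1 added). Those with groups apart numbered 1 after median centring (18.9% of all genes) and 4 with quantile normalization applied again (15.2%), alternatives chosen after seeing the data, as was leaving out arrays for the other named genes. Over all genes, limma called 0 to 2 with arrays left out (2 where FGF21 replicate 1 was dropped), 5 with quantile normalization applied again, 12 after median centring, 58 with dim genes left out (11090 genes tested), 2 with the mean of rows and 16 with the trend and robust prior. Genes at an unadjusted p under 0.05, 2594 as reported, numbered 1710 (without FGF21 replicate 2) to 3028 (without FGF21 replicate 1) over the arrays left out, and 1700 with dim genes left out. The share of them higher with FGF21 was 56.3%, 79.9% after median centring and 75.2% with dim genes left out.

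Over all genes, deviations from the group mean had correlations of 0.103, 0.158 and 0.00653 in arrays of the same number. Arrays of different numbers had correlations of -0.160 to 0.0416, so these values do not exclude pairing. The labels do not say that the numbers pair samples, so the block was run as an alternative only. With the replicate block, 0 genes were called, 2902 had an unadjusted p under 0.05, and Tnni1 had an adjusted p of 0.240. Tpm2 had an unadjusted p by limma of 0.0564 with the block and 0.112 without it.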
